A study of Mus musculus with 4 samples.

Results

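The Hox genes are the homeobox genes of the Hoxa, Hoxb, Hoxc and Hoxd clusters, here described between 2 ages of mouse colon along each cluster. They were chosen by name, as every gene probe on the array whose accession maps to a symbol of Hoxa, Hoxb, Hoxc or Hoxd followed by a paralog number; the rule uses the name, and the group was put forward with earlier results of these data known. Of the 38 genes listed, 35 had a probe that could be named and 28 were measured, among 20825 genes and transcripts tested in all.

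The RNA came from the colonic mucosa of C57BL/6 mice, as total RNA from tissue scraped off and frozen. Animals of postnatal day 90 (P90, young adult) were set against animals of postnatal day 30 (P30, shortly after weaning) on 4 oligonucleotide arrays read in 2 colours, which carry the letters a, b, e and k, with 1 RNA of each age per array. Array e has the dyes exchanged: its P90 RNA carried Cy5, and that of the other arrays Cy3. Both ages share the strain and tissue, and no genetic change or treatment is named for either; the labels do not give the position along the colon from which the mucosa was taken, the sex, or whether RNA of several animals was pooled.

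Hox proteins are transcription factors that bind DNA through a homeodomain and give cells their position along the body axis. Within a cluster the genes are numbered from one end to the other, the low-numbered (anterior) paralogs are active towards the head and the high-numbered (posterior) ones towards the tail, and genes of the same number in different clusters descend from 1 ancestral gene. In the gut this order persists in the adult: posterior genes, above all those of paralog group 13, are known for their expression in the hindgut, from which the distal colon and rectum form, and Hox genes are expressed in both the epithelium and the connective tissue under it.

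The 3 promoters below belong to genes that lay far apart in the measurements: Hoxd13, the gene at the posterior end of the Hoxd cluster, and Hoxd4 and Hoxb8, central genes of 2 clusters whose ratios had the opposite sign to that of Hoxd13 on arrays a and b. Each is the RefSeq sequence (build GRCm38.p6) from 250 bases before to 50 bases after the gene's start, written 5′ to 3′ on the plus strand, which is the strand of all 3 genes. Capitals mark every match, on either strand, to TTTATG (the core bound by the caudal-type factors CDX1 and CDX2, which act upstream of Hox genes), to TGATNNAT (a composite site of a Hox protein and its partner PBX) or to TATAAA (the TATA box).

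Hoxd13, chr2:74667975-74668274, plus strand: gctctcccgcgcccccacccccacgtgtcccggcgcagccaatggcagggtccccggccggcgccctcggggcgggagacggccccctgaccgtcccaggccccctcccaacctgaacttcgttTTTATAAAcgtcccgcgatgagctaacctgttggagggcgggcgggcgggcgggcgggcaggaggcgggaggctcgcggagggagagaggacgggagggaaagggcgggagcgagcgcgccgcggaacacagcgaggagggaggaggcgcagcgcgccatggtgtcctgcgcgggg

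Hoxd4, chr2:74721728-74722027, plus strand: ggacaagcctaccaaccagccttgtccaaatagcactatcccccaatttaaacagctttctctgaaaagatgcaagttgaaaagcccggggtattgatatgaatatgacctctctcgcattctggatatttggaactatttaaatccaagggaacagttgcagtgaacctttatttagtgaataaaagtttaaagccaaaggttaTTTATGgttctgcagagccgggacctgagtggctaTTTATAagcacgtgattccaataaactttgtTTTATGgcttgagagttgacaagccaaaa

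Hoxb8, chr11:96281655-96281954, plus strand: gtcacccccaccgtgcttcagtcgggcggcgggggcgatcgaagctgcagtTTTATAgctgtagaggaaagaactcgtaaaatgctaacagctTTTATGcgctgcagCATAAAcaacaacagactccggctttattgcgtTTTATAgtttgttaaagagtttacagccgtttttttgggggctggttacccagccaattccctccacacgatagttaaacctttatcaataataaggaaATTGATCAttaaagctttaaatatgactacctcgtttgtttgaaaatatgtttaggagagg

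The Hoxd13 promoter held 2 overlapping matches to TATAAA, 1 on each strand, and no match to the other motifs. It had a GC content of 74.3% with 37 CpG dinucleotides in 300 bases. The Hoxd4 promoter had a GC content of 39.7% with 4 CpG dinucleotides, and held 2 matches to TTTATG and 1 to TATAAA. In the Hoxb8 promoter, with 42.3% GC and 13 CpG dinucleotides, there were 2 matches to TTTATG, 2 to TATAAA and 1 to TGATNNAT. Of the 38 Hox genes, 22 had an entry in the promoter table, and 19 of the 28 measured genes had 21 entries between them. Among those 21 promoters, 5 held TTTATG (Hoxa7, Hoxb8, Hoxd3, Hoxd4 and 1 of the 2 of Hoxd11), against 11.9% of all 32851 promoters of that length. TGATNNAT was found in 3 (all promoters: 8.85%) and TATAAA in 4 (all promoters: 13.6%). The median GC content was 55.7% over the Hox promoters and 52.7% over all promoters, and the median number of CpG dinucleotides was 15 against 7. A match describes the letters only, and says nothing on binding.

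Detection was uneven over the clusters. All 10 listed Hoxa genes passed the filter, which asks that a probe be well above background in 1 channel on at least 3 of the 4 arrays, as did 9 of 10 Hoxb genes and 8 of 9 Hoxd genes. In the Hoxc cluster 1 gene of 9 passed, Hoxc9, and it did so in the P30 channel on 3 arrays and in the P90 channel on 2. The genes that did not pass were Hoxb1, Hoxd1, Hoxc5, Hoxc8, Hoxc10, Hoxc12 and Hoxc13. Hoxb1, Hoxc8 and Hoxc12 were not well above background in any of the 8 RNAs, although Hoxb1 was printed in 10 spots. For Hoxc4, Hoxc6 and Hoxc11 no probe could be named here. Passing in all 4 arrays of 1 channel left 25 genes, and passing in at least 1 array gave 32. No measured Hox probe was saturated.

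Between the ages, the Hox genes lay on both sides of 0. Of the 28 measured genes, 15 had a mean log2 P90/P30 below 0 and 13 above 0, with a median of -0.12 against -0.020 over all genes tested. On arrays a, b, e and k in turn, the median of the Hox genes was -0.099, -0.017, -0.0087 and -0.11. No Hox gene passed the test, which was limma's moderated test of the mean ratio against 0 with Benjamini-Hochberg adjustment over all 20825 genes at a threshold of 0.05, and neither did any other gene (0 of 20825, 0%). At an unadjusted limma p under 0.05 there were 1645 genes (7.9% of those tested), and 1 of them was a Hox gene, Hoxa7 (unadjusted p = 0.0179). The spread between arrays was wide: the median SD of a Hox gene over the 4 arrays was 0.57, against 0.35 over all genes. The precision of every value is limited by there being 4 arrays, and where RNA was not from separate animals the spread may be partly technical.

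**Figure D1:**
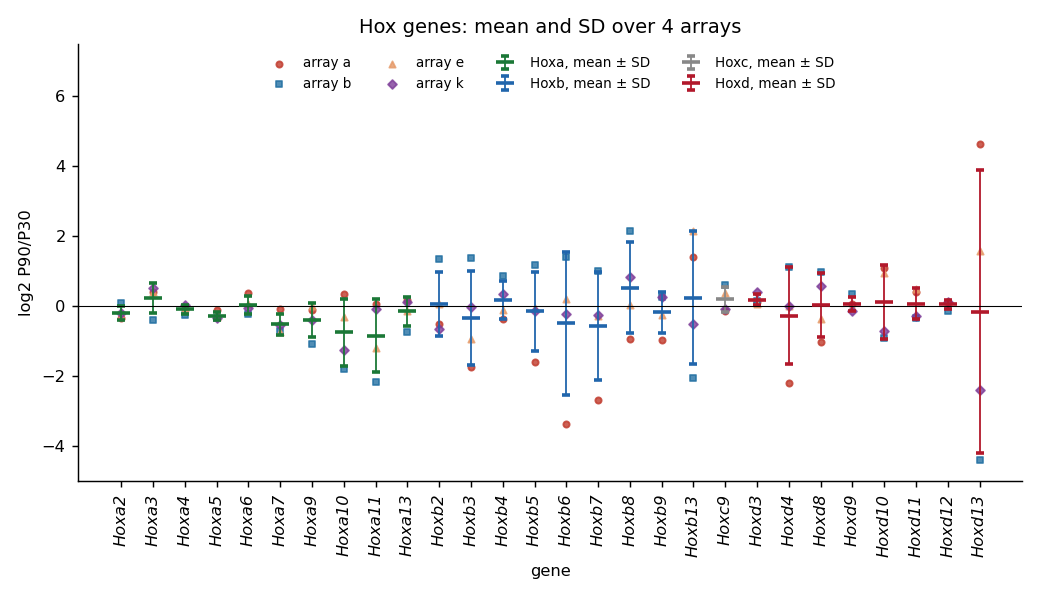
Log2 P90/P30 (vertical axis) of the 28 measured Hox genes in order of cluster and paralog number; horizontal bars with whiskers give the mean ± SD over 4 arrays, and small symbols the single arrays. The means lie between -0.85 and 0.52, while the SD reaches 4.04 for Hoxd13.

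The ratios of 3 Hox genes kept 1 sign on all 4 arrays. Hoxa7, a central gene of the thoracic body plan, had a log2 P90/P30 of -0.081, -0.71, -0.74 and -0.55 on arrays a, b, e and k. Array a lay apart from the others, and in every pair the P90 level was the lower. The mean was -0.52 ± 0.30 (SD, n = 4; limma adjusted p = 0.617). In the same cluster Hoxa5, known for its role in lung and gut mesenchyme, had values of -0.11, -0.33, -0.31 and -0.35 on arrays a, b, e and k. The P90 level was again the lower in each pair, by a small amount, and the mean was -0.28 ± 0.11 (SD, n = 4; limma adjusted p = 0.627). Hoxd3, an anterior gene, had values of 0.12, 0.14, 0.064 and 0.41. All of them lay above 0, with a mean of 0.18 ± 0.15 (SD, n = 4; limma adjusted p = 0.722), and its probe was well above background on 3 arrays in each channel. Over all genes tested, 7.98% lay below 0 on all 4 arrays and 6.15% above 0, so that 2 and 1 of 28 Hox genes (7.14% and 3.57%) are shares near or under the background. The means of Hoxa5, Hoxa7, Hoxd3, Hoxa2 and Hoxd12 had the same sign in each of the alternative settings in which they could be computed, and those of the other 23 Hox genes changed sign in at least 1. On array a itself the ratio of Hoxa7 kept its sign in 4 of 7 ways of processing the signals, that of Hoxa5 in 6 and that of Hoxd3 in 7. Among these ways, the deposited log ratios and the authors' value table gave nearly the same Hox values, so they are not separate checks.

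The gene that varied most was Hoxd13, the posterior end of the Hoxd cluster, required for hindgut, anal and digit patterning. Its log2 level in the P90 RNA was 10.38, 6.19, 11.01 and 7.76 on arrays a, b, e and k. In the P30 RNA of the same arrays it was 5.76, 10.59, 9.45 and 10.17. The low levels were therefore those of the P30 RNA of array a and of the P90 RNAs of arrays b and k, and both ages held high and low RNAs, with ranges that overlap. On this scale 50 units were added to every signal, so that the level of 5.76 is close to the lowest it can show. The log2 P90/P30 was 4.63, -4.40, 1.57 and -2.41 on arrays a, b, e and k. Arrays a and e lay above 0 and arrays b and k far below it, and the mean was -0.15 ± 4.04 (SD, n = 4; limma adjusted p = 0.991). That SD was the largest of all 20825 genes (rank 1); the next were 3.70 for Adamdec1, 3.59 for Slc37a2 and 3.35 for Fxyd4, genes named after their values were seen. A second Hoxd13 probe, well above background on 3 arrays in each channel, gave 1.95, -2.90, 1.32 and -0.95, with the same sign on every array. Over 7 ways of processing the signals the ratio stayed between 3.81 and 6.84 on array a, -5.71 and -4.18 on b, 1.40 and 1.74 on e, and -2.97 and -2.38 on k. The mean, in contrast, moved with the arrays that entered it, and was -1.75 without array a and 1.26 without array b.

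Hoxb13, the posterior end of the Hoxb cluster, known from the hindgut and prostate, had log2 P90/P30 values of 1.40, -2.05, 2.16 and -0.52 on arrays a, b, e and k. These signs are those of Hoxd13 on each array. Its P90 levels were 12.98, 10.89, 13.43 and 11.47 on a log2 scale and its P30 levels 11.58, 12.94, 11.28 and 11.99, so the groups overlapped and the mean was 0.25 ± 1.90 (SD, n = 4). Hoxa13, which acts with Hoxd13 in the hindgut, had 0.18, -0.74, -0.15 and 0.12. Its range was much narrower, this probe had the sign of Hoxd13 on arrays a and b only, and its mean was -0.14 ± 0.42 (SD, n = 4). A second Hoxa13 probe, well above background on all 4 arrays in each channel, had 0.55, -0.35, -0.50 and -0.16. That probe had the sign of Hoxd13 on array k as well. The median of the 3 measured genes of paralog group 13 was 1.40, -2.05, 1.57 and -0.52 on arrays a, b, e and k.

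In the same cluster as Hoxd13, the posterior genes Hoxd10 and Hoxd11 had ratios with the same signs on each array. Hoxd10 had 1.11, -0.91, 0.96 and -0.70 on arrays a, b, e and k, with a mean of 0.11 ± 1.07 (SD, n = 4). Hoxd11 had 0.41, -0.34, 0.49 and -0.27, with a mean of 0.073 ± 0.44. On array k neither was well above background in the P90 channel. Hoxd12, between Hoxd11 and Hoxd13, was dim and had 0.11, -0.14, 0.11 and 0.11, with a mean of 0.049 ± 0.13. The sizes of these dim genes moved with the background correction and offset, while each kept its sign on each array in all 7 ways of processing the signals. The ratio of Hoxd10 ranged from 0.75 to 2.33 on array a, from -1.44 to -0.70 on b, from 0.78 to 1.27 on e and from -2.53 to -0.70 on k. That of Hoxd11 reached from 0.25 to 2.10 on array a and from -2.16 to -0.10 on k, and that of Hoxd12 from 0.049 to 1.11 on a, from -1.25 to -0.12 on b and from 0.10 to 1.38 on e. Hoxd9 had 0.061, 0.33, -0.022 and -0.13, with a mean of 0.060 ± 0.20, and its probe was not well above background in the P90 channel of arrays a and k. A second Hoxd9 probe, well above background on all 4 arrays in each channel, had 0.054, -0.20, 0.22 and -0.13. These small ratios have the signs of Hoxd13 on each array.

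**Figure D2:**
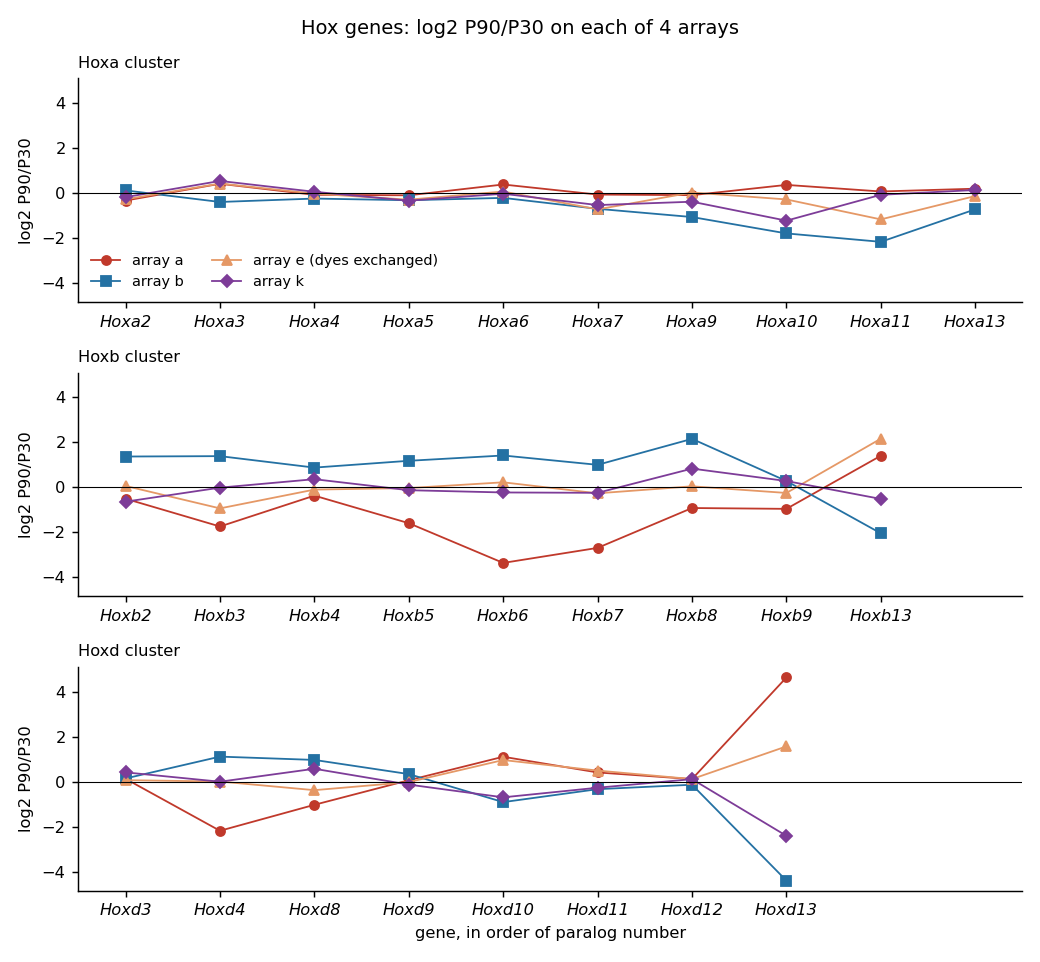
Log2 P90/P30 (vertical axis) of the measured genes of the Hoxa, Hoxb and Hoxd clusters in order of paralog number, 1 line per array; lines only join values of the same array, and Hoxc9 is not drawn. Arrays a and b lie on opposite sides of 0 along Hoxb2 to Hoxb9, and they change sides at Hoxb13 and between Hoxd8 and Hoxd10.

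Central genes of the Hoxb and Hoxd clusters had signs opposite to those of Hoxd13 on arrays a and b. Hoxb6, a gene of the trunk, had log2 levels of 9.63, 13.42, 11.62 and 12.06 in the P90 RNAs of arrays a, b, e and k, and of 13, 12.01, 11.4 and 12.29 in the P30 RNAs. The P90 RNA of array a was the lowest of the 8, and the P90 RNA of array b the highest. The log2 P90/P30 was -3.37, 1.41, 0.22 and -0.23 on arrays a, b, e and k, with a mean of -0.49 ± 2.04 (SD, n = 4; rank 76 by SD). Hoxb7, next to it, had -2.70, 0.99, -0.27 and -0.25, with a mean of -0.56 ± 1.55. For Hoxb5 the values were -1.60, 1.17, -0.039 and -0.13, with a mean of -0.15 ± 1.14. Hoxb8, whose promoter is printed above, had -0.93, 2.15, 0.039 and 0.83, with a mean of 0.52 ± 1.30 (SD, n = 4; limma adjusted p = 0.814). Hoxb4, known from blood stem cells, had -0.38, 0.87, -0.11 and 0.36, with a mean of 0.19 ± 0.55. All 5 central Hoxb genes thus lay below 0 on array a and above 0 on array b, while on arrays e and k they lay within 1 of 0.

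In the Hoxd cluster Hoxd4, a gene of the hindbrain border, had -2.19, 1.11, 0.0043 and -0.0043 on arrays a, b, e and k, with a mean of -0.27 ± 1.38 (SD, n = 4). Hoxd8 had -1.03, 0.96, -0.38 and 0.57, with a mean of 0.031 ± 0.91. Both had the signs of the central Hoxb genes on arrays a and b. The anterior genes Hoxb2 and Hoxb3 shared those signs: Hoxb2 had -0.51, 1.36, 0.055 and -0.64 (mean 0.065 ± 0.92), and Hoxb3 had -1.75, 1.38, -0.94 and -0.020 (mean -0.33 ± 1.34). On array a Hoxb3, Hoxb8 and Hoxd8 were not well above background in the P90 channel, so their ratios there are limited by the background. Over the 7 ways of processing the signals the ratio on array a ranged from -5.12 to -1.75 for Hoxb3, from -3.58 to -0.93 for Hoxb8 and from -4.12 to -2.19 for Hoxd4. With the log ratios as deposited the mean of Hoxb3 was -1.15. Without array a the means of Hoxb3, Hoxb5, Hoxb6, Hoxb7, Hoxb9 and Hoxd4 turned from below to above 0; that of Hoxb6 was then 0.46.

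**Figure D3:**
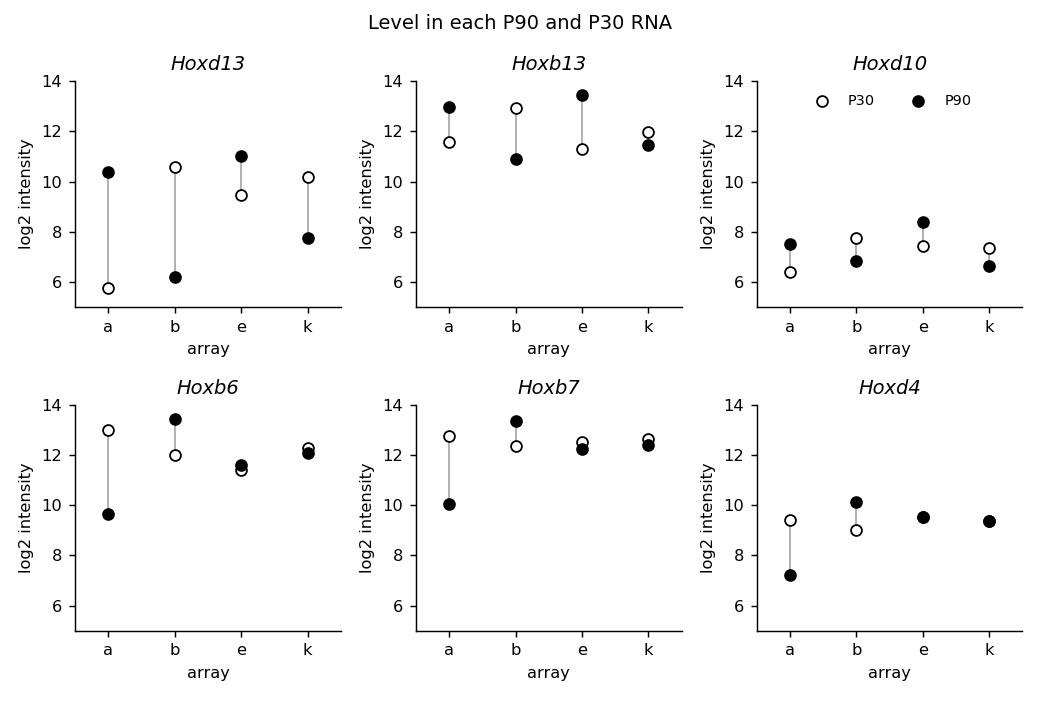
Log2 intensity (vertical axis, after normalization, with 50 added to every signal) of 6 Hox genes in the P90 RNA (filled) and P30 RNA (open) of arrays a, b, e and k, joined within an array; levels are to be compared within a gene only. Hoxd13, Hoxb13 and Hoxd10 have the higher level in P90 on arrays a and e, and Hoxb6, Hoxb7 and Hoxd4 have the lower level in P90 on array a and the higher on array b.

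The posterior Hoxa genes had low ratios on array b without a high counterpart on array a. Hoxa11, known from the uterus and forearm, had 0.057, -2.18, -1.18 and -0.090 on arrays a, b, e and k. Arrays b and e carried the value, arrays a and k lay near 0, and the mean was -0.85 ± 1.05 (SD, n = 4; limma adjusted p = 0.627). Hoxa10, its neighbour, had 0.35, -1.81, -0.30 and -1.24, with a mean of -0.75 ± 0.96 (limma adjusted p = 0.631). Hoxa9, known from blood progenitors, had -0.11, -1.08, 0.011 and -0.40, with a mean of -0.39 ± 0.49. On array b all 4 posterior Hoxa genes lay below 0, as Hoxd13 did, but on array a none of them went past 1 in size. With array b turned, a check made because its ratios run against those of the other arrays, the means of Hoxa9, Hoxa10, Hoxa11 and Hoxa13 lay above 0, at 0.24 for Hoxa11.

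Genes towards the anterior end of the Hoxa cluster had ratios near 0. Hoxa2, which patterns the hindbrain and second branchial arch, had -0.35, 0.10, -0.29 and -0.19, with a mean of -0.18 ± 0.20 (SD, n = 4). Hoxa3, known from the pharyngeal glands, had 0.40, -0.41, 0.41 and 0.53. Array b alone lay below 0, and the mean was 0.23 ± 0.43; with median centring in place of loess array a was below 0 too, at -0.41. Hoxa4 and Hoxa6 had means of -0.087 ± 0.13 and 0.038 ± 0.25. Hoxb9, at the border of the posterior genes, had -0.96, 0.27, -0.26 and 0.27 (mean -0.17 ± 0.59). Hoxc9, the single measured Hoxc gene, had -0.13, 0.61, 0.37 and -0.075 (mean 0.20 ± 0.36).

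By cluster, the median log2 P90/P30 on arrays a, b, e and k was -0.012, -0.56, -0.22 and -0.14 over 10 Hoxa genes. Over 9 Hoxb genes it was -0.96, 1.17, -0.039 and -0.13, and over 8 Hoxd genes 0.12, 0.00078, 0.088 and -0.068. The Hoxd median near 0 joins genes of opposite sign, since the 2 central Hoxd genes had a median of -1.61 on array a and 1.04 on b, and the 5 posterior ones 0.41 and -0.34. Arranged by paralog number over all clusters, the 11 genes of groups 4 to 8 had medians of -0.93, 0.96, -0.041 and -0.044, and 10 of the 11 lay below 0 on array a. On array b 7 of them lay above 0 and 4 below it. Those 4 were Hoxa4, Hoxa5, Hoxa6 and Hoxa7, with -0.26, -0.33, -0.23 and -0.71 in turn. On array a the same 4 genes had -0.091, -0.11, 0.37 and -0.081. The wide ratios of groups 4 to 8 were thus those of Hoxb and Hoxd genes. The 12 genes of groups 9 to 13 had medians of 0.15, -0.82, 0.062 and -0.20, with 9 of 12 above 0 on array a and 9 of 12 below 0 on array b. The 5 genes of groups 2 and 3 had medians of -0.35, 0.14, 0.055 and -0.020. Over all genes tested, each array's median lay between -0.041 and -0.0042. Of these 20825 genes, 11246 lay below 0 on array a and 10775 on array b.

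Large ratios were frequent among Hox genes on arrays a and b and less so on e and k. A log2 ratio past 1 in size, which is past 2-fold, was found on array a for 9 of 28 Hox genes (32.1%) and for 11.7% of all genes. On array b it was found for 11 Hox genes (39.3%) against 5.21% of all genes. On array e there were 3 (Hoxa11, Hoxb13 and Hoxd13; 10.7% against 6.39%), and on array k 2 (Hoxa10 and Hoxd13; 7.14% against 5.65%). Ratios past 1 on both arrays a and b with opposite signs were found for 6 Hox genes, Hoxb3, Hoxb5, Hoxb6, Hoxb13, Hoxd4 and Hoxd13, which is 21.4% of those measured, and for 345 of all genes (1.66%). Hoxb3 enters these counts through a probe not well above background in the P90 channel of array a. Its other probe, better detected, had -0.43 on array a and 0.24 on array b. The Hox genes were put forward for description with earlier results of these data known, so these shares are a description.

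**Figure D4:**
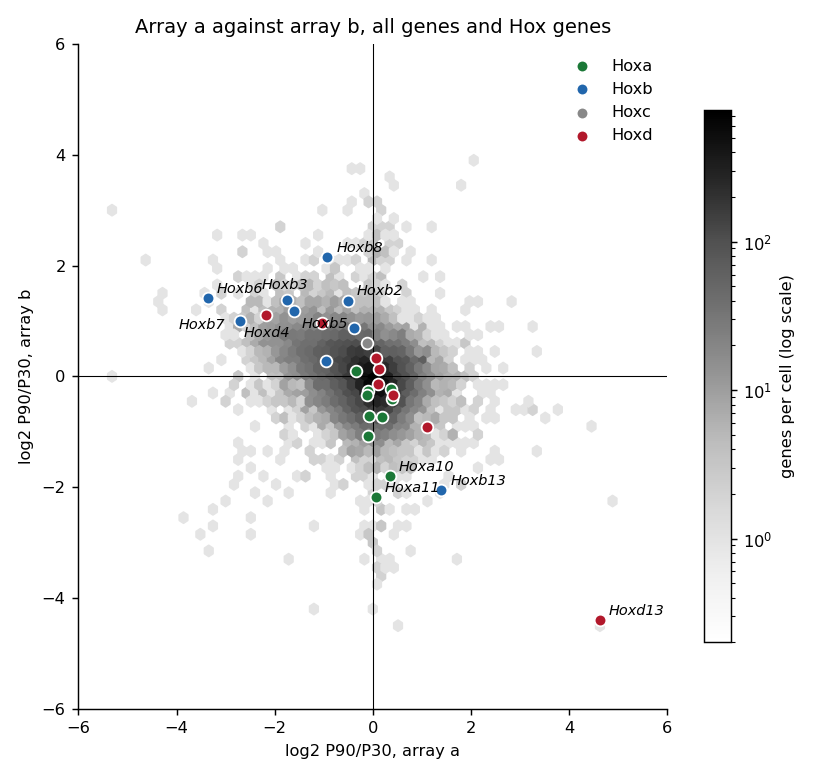
Log2 P90/P30 on array a (horizontal) against array b (vertical); grey cells count all genes tested on a log scale, and coloured points are the 28 Hox genes by cluster, the widest ones named. Hoxd13 lies at 4.63 and -4.40, with Hoxb13 and Hoxd10 in the same quadrant, and Hoxb3, Hoxb5, Hoxb6 and Hoxd4 lie in the opposite quadrant.

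Arrays a and b also ran against each other over the array as a whole. Across all probes, which are not independent replicates, the log2 ratio of array b correlated negatively with that of array a (Pearson r = -0.30), of array e (r = -0.27) and of array k (r = -0.17), while a, e and k correlated positively with each other (r from 0.30 to 0.58). The labels give the dyes of each array, and the direction was kept as they give it. With the sign of array b turned, no Hox gene passed the test (limma with Benjamini-Hochberg adjustment), 5 of 28 had an unadjusted p under 0.05 where 23.9% of all genes did, and the mean of Hoxd13 was 2.05.

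For 6 genes a second probe passed the filter. Beside Hoxd13, both Hoxb9 probes had the same sign on each array (second probe -0.47, 0.41, -0.71 and 0.76). The second probe of Hoxb3 had a narrower range than the first, at -0.43, 0.24, 0.017 and 0.16, and differed from it in sign on arrays e and k. This second probe was well above background on all 4 arrays in each channel, which the first was not. The second probes of Hoxa3 and Hoxd9 had means of -0.0092 and -0.015, against 0.23 and 0.060 for the first. The Hoxd9 probes differed in sign on arrays b and e. Both probes of Hoxa13 had means slightly below 0 (-0.14 and -0.11), and they differed in sign on array k. Where 2 probes of a gene differ in size, the fold of that gene is uncertain.

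Marker genes of the colon and of other cell types were read on the same arrays. The 8 colonic epithelium markers were all measured, with median ratios of 0.39, 0.33, -0.16 and -0.0042 on arrays a, b, e and k. Krt8 and Krt18 were saturated in both channels of all 4 arrays, and Krt20, Vil1 and Car1 in the P30 channel of all 4 and the P90 channel of 2, so that the ratios of these 5 are limited by saturation. All 5 read 0.328 on array b and -0.155 on array e. The list medians on arrays b and e are therefore those of saturated genes. On array k the median lies between those of Krt20 (-0.30) and Vil1 (0.29), both saturated. On array a it lies between Cdh1 (0.33) and the saturated Vil1 (0.45). The medians of this list therefore do not describe expression on any of the 4 arrays. A list of distal colon genes, added after the Hox values were seen but before the values of its members were looked at, had 4 of 5 members measured and medians of 1.16, -1.23, 0.45 and -0.34, the signs of Hoxd13 on each array; its members differed among themselves. Its member Scnn1g, a subunit of the epithelial sodium channel, had 1.76, -1.99, 1.57 and -1.77, and Insl5, a peptide hormone of distal colon enteroendocrine cells, had 1.51, -2.01, 0.045 and -0.33. Scnn1b had 0.81, -0.48, 0.86 and 0.39, with a mean of 0.40 ± 0.62 (SD, n = 4), and Cldn8 had 0.55, -0.11, -0.57 and -0.35, with a mean of -0.12 ± 0.48. Scnn1b thus differed in sign from Hoxd13 on array k and Cldn8 on array e. The summed intensity of the list, on a linear scale, was 9388 to 49070 in the P90 RNAs and 16580 to 28030 in the P30 RNAs. The part of the position along the colon in the Hox values was not tested.

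Fibroblast markers, all 8 measured, had medians of -3.40, 1.47, -1.83 and -2.95, with all 8 below 0 on arrays a, e and k and all 8 above 0 on array b. Col3a1 had -4.42, 1.37, -2.36 and -4.41, and Col1a2 had -4.23, 1.53, -2.53 and -3.21. Their summed intensity ranged from 2890 to 33290 in the P90 RNAs and from 11950 to 94750 in the P30 RNAs, and no marker was at background in every RNA. The 6 endothelial markers had medians of -0.91, 0.93, -0.55 and -1.46, with means of -0.58 ± 1.43 for Plvap and -0.63 ± 1.40 for Ramp2. On arrays a and b these signs are those of the central Hoxb genes, Hoxd4 and Hoxd8. They are not particular to these lists. The leukocyte medians (-0.049 and 0.80) and the small intestinal enterocyte medians (-0.026 and 0.11) share them, though not every list does. On arrays e and k the fibroblast median was -1.83 and -2.95, where that of the 5 central Hoxb genes was -0.039 and -0.13. In bulk RNA, fewer cells of a type and less RNA per cell cannot be told apart, and the part of connective tissue in the Hox values was not tested. The other marker lists, with the means of their 2 brightest members, follow on arrays a, b, e and k. The smooth muscle list (7 of 7 measured) had medians of 0.31, 0.73, 1.0 and -0.42, with means of -0.0031 ± 0.69 for Acta2 and 0.16 ± 0.95 for Tagln. The enteric neuron and glia list (4 of 9) had 0.47, -0.33, 0.45 and -0.27, with -0.0021 ± 1.07 for Tubb3 and 0.22 ± 0.52 for S100b. The medians of the enteric neuron and glia list, with 4 genes, have the signs of Hoxd13 on each array. Its members differed, as S100b lay above 0 on array b (0.28) and Uchl1 on array k (0.039). The leukocyte list (7 of 7) had -0.049, 0.80, -0.25 and -0.056, with 0.060 ± 0.28 for Cd3e and -0.55 ± 1.35 for C1qa. The adipocyte list (6 of 7) had 0.41, 2.50, 5.78 and 0.65, with 3.47 ± 2.41 for Cfd and 1.30 ± 2.53 for Fabp4, each saturated in 1 P90 RNA. It was highest on array e, where the Hox median was near 0. The small intestinal enterocyte list (6 of 6) had -0.026, 0.11, 0.033 and -0.67, with -0.52 ± 1.13 for Sis and 1.36 ± 1.05 for Fabp1. The skeletal muscle list (3 of 5) had -0.11, 0.0036, 0.091 and 0.12, with 0.39 ± 0.78 for Acta1 and -0.12 ± 0.30 for Mylpf. The squamous epithelium list (4 of 5) had -0.011, -0.42, 0.29 and 0.10, with 0.014 ± 0.67 for Krt14 and 0.30 ± 0.71 for Lor. No gene of any marker list passed the limma test after adjustment.

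**Figure D5:**
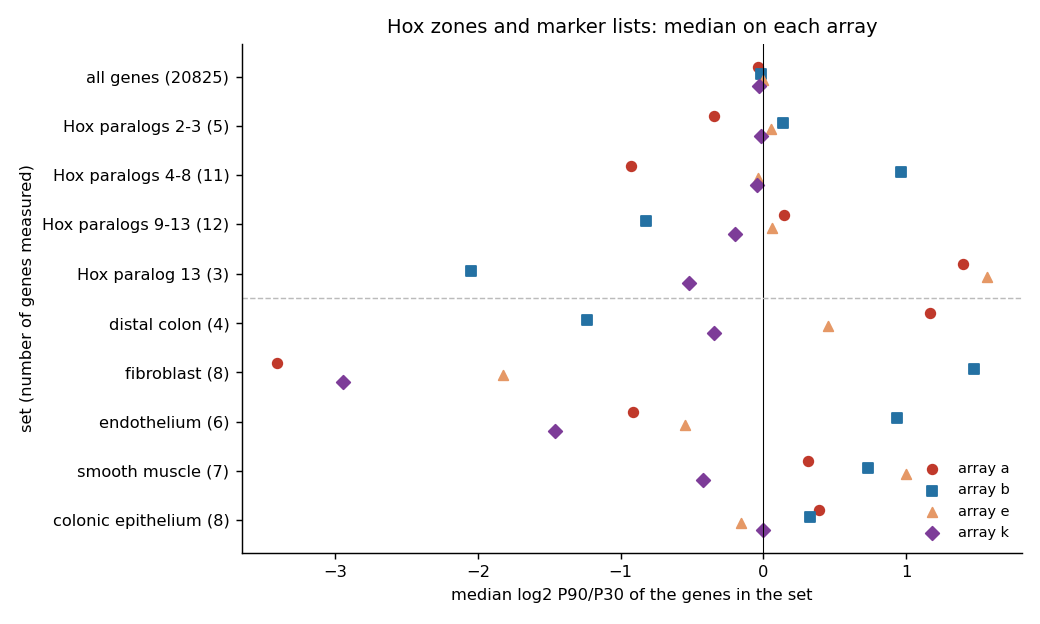
Median log2 P90/P30 (horizontal axis) of each set of genes on each of the 4 arrays, with the number of genes measured in brackets; Hox sets are above the dashed line and marker lists below it. Paralog group 13 and the distal colon list lie above 0 on arrays a and e and below 0 on b and k, and paralog groups 4 to 8 lie furthest from 0 on arrays a and b, at -0.93 and 0.96. The colonic epithelium medians are limited by saturated genes on all 4 arrays.

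The genes that flank the clusters were taken as the nearest 3 protein-coding genes on each side by the RefSeq order, and 21 of these 24 were measured. Evx2, a homeobox gene beside Hoxd13, had 0.91, -0.36, 0.48 and -0.12 on arrays a, b, e and k. These are the signs of Hoxd13 at a fraction of its size, with a mean of 0.23 ± 0.58 (SD, n = 4). Those signs were not particular to Evx2. Skap2, beside the anterior end of the Hoxa cluster, had them at a larger size, with 0.97, -0.61, 0.63 and -0.51. Evx1, beside Hoxa13, had 0.53, -0.91, -0.097 and 0.27, with a mean of -0.052 ± 0.63. These are the signs of the first Hoxa13 probe, while the second differed from them on array k. Beyond Evx2 lies Lnpk, with a mean of -0.38 ± 0.56, and at the other end of the Hoxd cluster Mtx2, with -0.41 ± 0.33. Skap1, beside the anterior end of the Hoxb cluster, had 0.26, 0.39, 0.17 and 0.47, with a mean of 0.32 ± 0.14 (limma adjusted p = 0.624). Ttll6, beside Hoxb13, had 0.057, -0.36, 0.35 and -0.065, again the signs of Hoxd13, with a mean of -0.0039 ± 0.29. The flanking means furthest from 0 were those of Cbx3 (-1.21 ± 1.39) and Hnrnpa3 (-1.12 ± 1.13), near the anterior ends of the Hoxa and Hoxd clusters.

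The genes that act with or upstream of Hox genes were described as lists. Of the TALE homeodomain partners of Hox proteins 8 of 9 were measured, none passed the test, and the median of the means was 0.014. Pbx3 had -0.86, -0.28, -0.57 and -0.39, with a mean of -0.52 ± 0.25 (SD; limma adjusted p = 0.617). Pbx2 had a mean of 0.23 ± 0.18 and Pknox1 of 0.021 ± 0.22. Of the ParaHox genes, relatives of the Hox genes outside the clusters, none passed the test. Cdx2, the caudal-type factor of the intestinal epithelium, had -0.89, -0.14, -0.32 and -0.24, with a mean of -0.40 ± 0.33, and its relative Cdx1 a mean of 0.24 ± 0.74.

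Of the polycomb group, which keeps Hox genes silent through methylation of histone H3, 15 of 16 were measured with a median of 0.12 and none past the test. The means were -0.73 ± 0.72 for Eed and -0.35 ± 0.42 for Jarid2, both of PRC2 or its cofactors, and -0.80 ± 1.34 for Rnf2 and 0.12 ± 0.16 for Phc2, both of PRC1. The trithorax group, which keeps Hox genes active, had 7 of 9 measured with a median of -0.021 and none past the test. Men1, the menin cofactor of the histone methyltransferases, had a mean of 0.23 ± 0.54, Ash2l of -0.21 ± 0.25 and Dpy30 of -0.35 ± 0.21. In the retinoic acid pathway, which sets Hox boundaries in the embryo, 13 of 16 were measured with a median of 0.17 and none passed. The receptor Rarg had 0.50, 0.65, 0.29 and 0.45, with a mean of 0.47 ± 0.15 (SD; limma adjusted p = 0.617). Rxra had a mean of 0.24 ± 0.43 and the synthesis enzyme Aldh1a1 of -0.36 ± 1.02. Regulators of gut mesenchyme, 5 of 7 measured and none past the test, had medians of -0.47, 0.70, -0.19 and -1.15 on the 4 arrays, with means of -0.88 ± 1.58 for Foxf2 and -1.09 ± 1.79 for Tcf21.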

How the data were processed

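Total RNA of 1 P90 and 1 P30 colonic mucosa was hybridised to each of 4 arrays. The deposited scanner files hold the median spot and background intensity of each channel, per the file headers; mean signals, which the design also allowed, are not used here. The file headers name version 10.5.1.1 of Agilent Feature Extraction, and the submitters' processing notes name version 8.5.1.1. Cy5 over Cy3 of the processed signals is deposited as a log10 ratio, per the file headers. The series value table, deposited by the authors, matched that ratio turned to log2 P90/P30 within 0.01 for 80% to 87% of probes, with column medians of 0.205, -0.17, 0.0494 and 0.167 on arrays a, b, e and k. Marks for outlier, background and saturated spots, a value of no unit (other), were used as deposited.

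RefSeq accessions named 25097 of 41174 probes (assembly GRCm38.p6). The design's positions belong to another build, so the coordinates given are those of the RefSeq promoter table. In limma 3.58.1 (R 4.3.3) background was corrected with normexp at an offset of 50, followed by loess (span 0.3, control spots at weight 0); channel levels were further scaled between arrays with Aquantile. Outlier spots (127 to 156 per array) were left out, and every ratio was turned to log2 P90/P30. Probes well above background in 1 channel on at least 3 arrays were kept (27055), and the probe of highest mean intensity stood for its gene. The mean was tested against 0 with lmFit and eBayes, and p adjusted over 20825 genes. The fit was also run on simulated data with independent noise on each array, and its outcome is not reported here. That noise lacks the negative correlation of array b with the other arrays. Spots well above background made up 55.6% to 69.3% of gene spots in the P90 channels and 64.6% to 71% in the P30 channels. All arrays lay on 1 slide, so no batch could be tested. The labels call the 4 comparisons independent, and p-values measure only the spread between these pairs.

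The members, lists and tests were chosen with earlier results of these data known. Every measured Hox gene is named with its mean. By the rule, values on each array are given for the 3 highest and 3 lowest means, for genes of 1 direction on all arrays and for those at an unadjusted p under 0.05, and those of the other genes were added after the values were seen. From each pathway list the 2 largest means and the 2 brightest members are named; from each marker list the 2 brightest are named. Some genes that the name pattern or this rule picks are not reported here.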

Additional observations from a re-analysis of the deposited data

Results flagged for a closer look

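Of 75 genes named with values on 4 arrays, 28 of them Hox genes, 4 had 1 array whose gap to the nearest other array, as a share of the whole range, was over Dixon's 95% limit for 4 values. Chance flags about 1 in 20 such groups, and array b was the array set apart each time. Hoxa3 had -0.41 on array b, with 0.40 to 0.53 on the others. Its second probe had 0.075, 0.058, -0.075 and -0.096 on arrays a, b, e and k, and with median centring the first had -0.41 on array a too. Hoxd12 had -0.14 on array b, with 0.11 on each of the others. Its probe was not well above background in the P90 channel of arrays a and k or the P30 channel of array e, so these small values are limited by the background. Men1, of the trithorax list, had -0.57 on array b, and Plvap, an endothelial marker, had 1.54 there.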

How the results depend on the processing

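No Hox gene passed the limma test in any of the 19 alternatives, and the count of all genes past it was 0 except for 2 with the processed signals, with an offset of 10, with the log ratios as deposited and with the value table. The log ratios as deposited and the value table held nearly the same Hox values and are not separate checks. The Hox median of -0.12 became -0.23 with the deposited log ratios or the value table, -0.28 with median centring in place of loess, and 0.0038 with no filter on dim probes (35 Hox genes); leaving out 1 array gave -0.14 to 0.044, the highest without array a. Hox genes below 0 on all arrays numbered 2, against 7.98% of all genes, but 1 with the processed signals (7.39%), 4 with no background correction (7.9%), 3 with the deposited log ratios (7.23%) or the value table (7.24%), 7 with median centring (12.8%), 4 with array b turned (19.1%) and 11 with arrays b and e left out (36.5%). Leaving out 1 array gave 3 to 6, with 4 without array a (10.7%) and 6 without array b (27.1%). The 6 Hox genes past 1 with opposite signs on arrays a and b, a count added after seeing the data, against 1.66% of all genes, became 13 with the processed signals (6.42%), 10 with an offset of 10 (2.61%), 12 with the deposited log ratios (7.73%), 12 with the value table (7.74%), 8 with median centring (3.23%), 7 with no background correction (1.67%), 5 with the strict filter (21 Hox genes, 1.91%) or the mean of a gene's probes (1.22%) and 0 with array b turned (0.279%). Turning array b takes the 6 genes of the main setting out of this count by construction, so that fall was fixed in advance. Where fewer arrays enter, a shared sign is more frequent in all genes. The cause of the other differences was not tested. Of 525 pairs of a Hox gene and an alternative, 28 moved by more than the gene's SD and 0 passed the test. Genes at an unadjusted limma p under 0.05 numbered 682 without array a (3.27% of all genes), 4654 without array b (22.3%) and 4055 with array weights (19.5%), against 1645 (7.9%). Among the 28 Hox genes there were 3, 3 and 2 in turn, against 1. With median centring there were 5 Hox genes, against 2273 of all genes (10.9%). Taking paralog 4 as anterior gave central medians of -0.98 and 0.98 on arrays a and b. Signal over background limits Hoxc9, Hoxd3, Hoxd9, Hoxd12 and, on single arrays, Hoxb3, Hoxb8, Hoxd8, Hoxd10 and Hoxd11.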
